A study of Mus musculus with 44 samples.

Results

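Microglia of female 5xFAD mice with 2 normal copies of Trem2 were compared with microglia of female mice without the 5xFAD transgenes (NonTg). The comparison used every library of these 2 genotypes in the table of females: 6 libraries labelled 5xFAD;Trem2+/+ (numbers 1, 7, 13, 14, 19 and 25) and 5 labelled NonTg;Trem2+/+ (numbers 4, 10, 24, 28 and 30), 11 of the 44 samples of the series. The other 16 libraries of that table came from 5xFAD mice with 1 copy (T96K/+, 9 libraries) or 2 copies (T96K/T96K, 7 libraries) of the T96K allele of Trem2, and they entered the fit for its estimate of the spread. All mice were 8 months old, all cells were sorted from brain by FACS for CD11b and CD45, and polyadenylated RNA was amplified from low input. In the 5xFAD line the transgenes, which include mutant human APP, are driven by the neuronal Thy1 promoter, so microglia meet amyloid that neurons produce. Each library number was read as 1 mouse, which the labels do not state outright, so the p-values reflect only how much these libraries vary.

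Microglia are the resident macrophages of the brain. Around amyloid plaques they leave their surveying state and enter one known as disease-associated microglia, in which genes for lysosomes, lipid handling and phagocytosis are raised. The later stage of that state depends on TREM2, a receptor for lipids and lipoproteins that signals through the adaptor TYROBP to the kinase SYK. Interferon-induced genes, checkpoint receptors and the hypoxia factor HIF1A are further programs known in activated macrophages.

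Values are RPKM, reads scaled to gene length and to an effective library size. The size implied by the values was 1.03 to 1.26 times the reads of each NonTg library. In 5xFAD Trem2+/+ libraries it was 0.80 to 1.09 times the reads. The part of this scaling in the calls was not tested. Differences are given as log2 fold changes of RPKM + 1 (5xFAD Trem2+/+ minus NonTg) with their standard error (SE). A gene was called when its p-value from limma, adjusted by the Benjamini-Hochberg method over the 14591 genes tested, was under 0.05. Of these genes 3438 (23.6%) were called, 1972 higher (13.5%) and 1466 lower (10%) in 5xFAD Trem2+/+. Counts of list members called are to be read beside these shares. Because the lists were chosen with earlier results of these data known, such counts are descriptions and not tests. The median log2 fold change of all genes tested was 0.04. After quantile normalization the split turned to 1524 higher (10.4%) and 1807 lower (12.4%), with a median of -0.02. The groups did not overlap in 1458 genes (9.99%): in 850 (5.83%) every 5xFAD Trem2+/+ value lay above every NonTg value, and in 608 (4.17%) every one lay below; of these 819 (5.61%) and 582 (3.99%) were also called.

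Depth did not match between the groups. NonTg libraries 28 and 30 held 28907733 and 31960395 reads and 5xFAD library 25 held 42374925 (deep libraries), whereas the other 8 held 6836049 to 15987895 (shallow libraries). Both deep NonTg libraries lay above all 3 shallow NonTg libraries in 17.5% of all genes tested but in 55.0% of the genes called higher, and library 25 was the highest 5xFAD Trem2+/+ library in 59.2% of the genes called higher, against 25.9% of all. With the depth class as a covariate 2149 genes were called higher (14.7%) and 1664 lower (11.4%). Among shallow libraries alone the counts were 2259 (15.5%) and 1760 (12.1%), and 1648 genes (11.3%) were called higher and 1154 (7.91%) lower in all 3 fits.

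Marker genes showed what else the sort held. The 10 microglia markers had a mean log2(RPKM + 1) of 7.14 to 8.62 over the NonTg and 7.68 to 8.98 over the 5xFAD Trem2+/+ libraries. Endothelial markers were at 5.88 to 7.21 in NonTg and 4.76 to 5.63 in 5xFAD Trem2+/+, so the groups did not overlap, and 7 of the 8 were called lower (3 without 5xFAD Trem2+/+ libraries 19 and 25). Of the 6 mural cell markers 3 were called lower, and of the 9 astrocyte markers 4 were called lower (2 without NonTg library 4, and likewise without library 30) and 1 higher. In the oligodendrocyte list 1 of 9 was called lower (0 without NonTg library 4 or 24 or 5xFAD Trem2+/+ library 19, 2 without library 13 or 14), and in the precursor list 1 of 2. Of the microglia markers 2 were called higher (1 without NonTg library 4, and likewise without library 24) and none lower, with a median of 0.51. Among shallow libraries 7 were called higher and none lower (median 1.15). After quantile normalization 1 was called higher and 1 lower (median -0.34), and among deep libraries the median was -1.08. Summed RPKM of the 8 endothelial markers ran from 1232 to 2726 in NonTg and from 440.1 to 1011 in 5xFAD Trem2+/+, and no marker in the table, of any cell type, stood at 0 in all 11 libraries. Among the neutrophil, monocyte, border-associated macrophage, B cell, T or NK cell, erythroid, neuron and choroid plexus lists no gene was called in the main fit. Among shallow libraries 2 of 3 tested B cell markers were called higher. There 3 of 8 border-associated macrophage markers and the 1 tested T or NK cell marker were called lower. Medians of these lists among deep libraries ran from -1.20 (erythroid) to 3.51 (monocyte). The part that RNA of vessel cells had in the differences below was not tested. With the mean endothelial level of each library as a further term, an alternative added after seeing the data, 504 genes (3.45%) were called, 424 higher (2.91%) and 80 lower (0.548%). Because endothelial levels of the 2 groups did not overlap, the effects of this term and of genotype cannot be fully told apart. A call lost with the term thus cannot be assigned to vessel RNA. Bulk values cannot tell fewer cells of a type from less RNA per cell. By Xist and the Y-linked genes the 11 libraries were female; 1 of the 16 T96K libraries held more RNA of Y-linked genes than Xist.

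**Figure D1:**
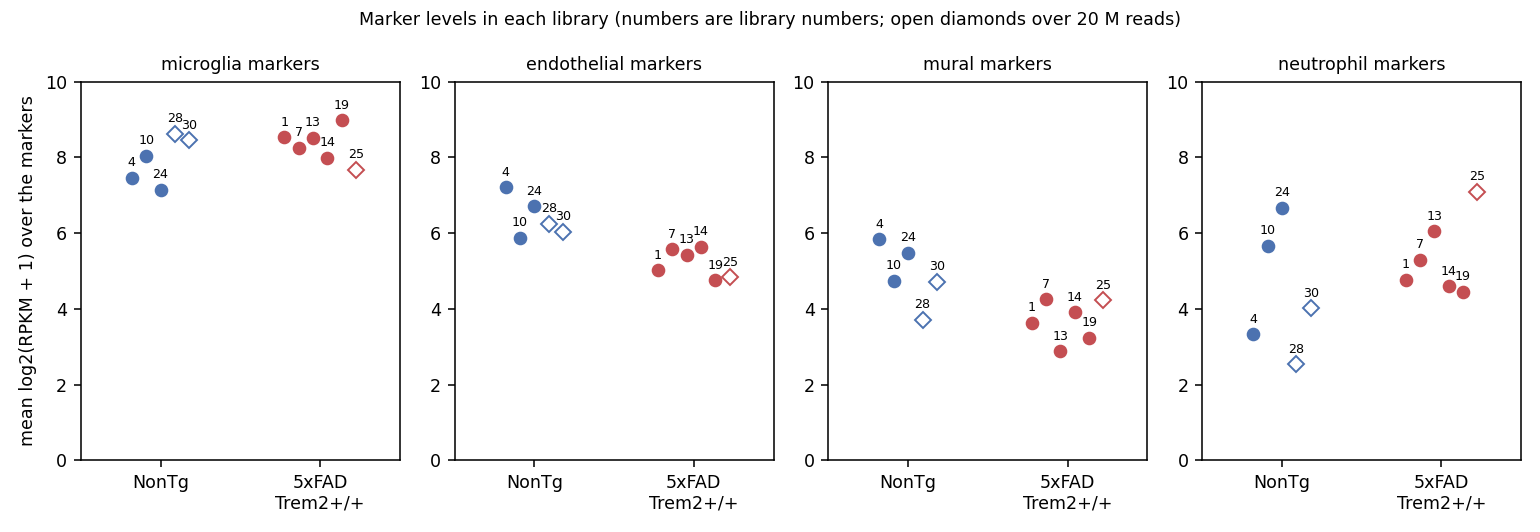
Mean log2(RPKM + 1) of the microglia, endothelial, mural and neutrophil markers in each of the 5 NonTg and 6 5xFAD Trem2+/+ libraries, labelled by library number; open diamonds are the deep libraries. Endothelial levels of the 2 groups do not overlap (5.88 to 7.21 against 4.76 to 5.63), microglia levels do, and neutrophil levels spread widely within both groups.

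Trem2 itself rose. It was 161, 198, 148, 539 and 398 RPKM in NonTg libraries 4, 10, 24, 28 and 30, and ran from 609 through a median of 939.8 to 1831 RPKM in 5xFAD Trem2+/+, a log2 fold change of 1.996 (SE 0.30, adjusted p = 2.66e-05 by limma). All 6 values lay above the 5, but the deep NonTg libraries came closest. Of 24 tested genes of Trem2 signalling and related receptors 6 were called higher and none lower, with a median of 0.33. Beside Trem2 and its adaptor Tyrobp (2.55, SE 0.40), these included Hcst, the DAP10 adaptor (2.64, SE 0.36). They also included Treml2, a receptor of the same gene cluster as Trem2 (1.97, SE 0.22). In mm9 Tyrobp ends at 31202596 on chromosome 7 and Hcst begins at 31202732 on the other strand. Mean RPKM in 5xFAD Trem2+/+ was 9606 for Tyrobp and 108.3 for Hcst. The libraries do not mark strand, so reads of Hcst that lie near Tyrobp are uncertain. The phosphatase gene Inpp5d (-0.38, SE 0.25) and the kinase gene Prkcd (-0.40, SE 0.21) did not pass the test. These were the most abundant members of the list that were not called; Prkcd was called lower after quantile normalization (-0.75). Of the genes of the sort gate, Ptprc, which encodes CD45, rose by 0.98 (SE 0.14, adjusted p = 9.53e-06 by limma), and Itgam, which encodes CD11b, did not pass (0.56, SE 0.31, adjusted p = 0.196); among shallow libraries Itgam was called higher (1.16, adjusted p = 0.000991).

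All 15 tested genes of stage 2, the late disease-associated state, were called higher, with a median log2 fold change of 3.51, and all 15 had groups that did not overlap, against 5.83% of all genes. They were also all called with the endothelial term. Each of the 15 was higher in both deep NonTg libraries than in any shallow one, against 17.5% of all genes. Of the 9 stage 1 genes 7 were called higher and none lower (median 1.84). With the endothelial term 5 were called higher (median 1.34), and after quantile normalization 5 were (median 0.90).

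Cst7, the gene of the protease inhibitor cystatin F, had the largest rise (7.74, SE 0.75): its NonTg values were 1.17, 1.06, 0.738, 43 and 35.5 RPKM and its 5xFAD Trem2+/+ values 456 to 4037, with a median of 1123. The ratio therefore depended on which NonTg libraries were used; without libraries 28 and 30 its log2 fold change was 9.47. Cox6a2, a cytochrome c oxidase subunit typical of striated muscle, was at 0.753, 1.06, 0.503, 19.1 and 15.7 RPKM in NonTg and 118 to 546 RPKM (median 255) in 5xFAD Trem2+/+, a rise of 5.79 (SE 0.56). No NonTg library reached the lowest 5xFAD Trem2+/+ value of either gene.

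Igf1, a growth factor, was at 0.0166, 0.035, 0.0133, 0.974 and 1.29 RPKM in NonTg and 30.4 to 115 (median 44.7) in 5xFAD Trem2+/+, where library 25 was the highest. Hpse, the gene of heparanase, an enzyme that cuts heparan sulfate chains of the matrix, was at 0.0156, 0.0331, 0.0376, 0.0096 and 0.867 RPKM in NonTg and 15.2 to 45.5 (median 23.1) in 5xFAD Trem2+/+. Both were near 0 in the shallow NonTg libraries, and the rises were 5.16 (SE 0.35) and 4.41 (SE 0.39). The other large rises were Gpnmb (6.41), a glycoprotein of lipid-laden macrophages, Spp1 (5.75), which encodes osteopontin, the glucan receptor Clec7a (5.22), the fatty acid-binding protein Fabp5 (4.81), the matrix protein Mamdc2 (4.78), the integrin Itgax (4.67), lipoprotein lipase Lpl (4.66) and the linker histone Hist1h1d (4.25, SE 1.04). Hist1h1d had the widest error of the 12, and its NonTg values ran from 0.158 to 10.1 RPKM.

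**Figure D2:**
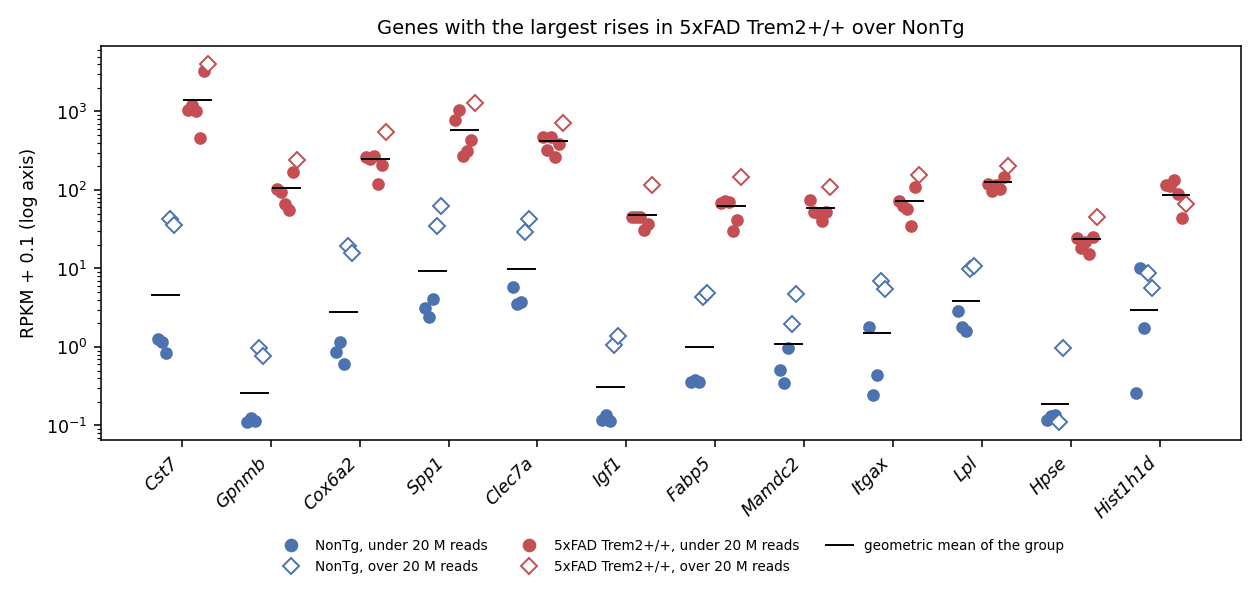
RPKM + 0.1 on a log axis of the 12 genes with the largest rises, 1 point per library, with the geometric mean of each group as a line; open diamonds are the deep libraries. In all 12 the lowest 5xFAD Trem2+/+ value lies above the highest NonTg value, and in most the open NonTg diamonds (libraries 28 and 30) lie above the filled NonTg points.

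A list of checkpoint receptors, inhibitory receptors and their relatives held a second group of strong changes. Of its 26 tested members 11 were called higher and 2 lower (median 0.58), and 9 and 2 with the endothelial term. Pdcd1, the PD-1 receptor known for restraining T cells, was at 3.16, 1.39, 1.2, 17.1 and 12.8 RPKM in the NonTg libraries and at 54.8 to 116 RPKM (median 81) in 5xFAD Trem2+/+. Its rise was 3.86 (SE 0.41, adjusted p = 1.98e-07 by limma), and the groups lay far apart. In mm9 the gene lies on chromosome 1 at 95934884 to 95949130 on the - strand. Of 7 T or NK cell markers 1 passed the filter on low values, the T cell receptor gene Trac, at 2.41, 1.41, 3.37, 0 and 2.22 RPKM in NonTg and 0 to 4.92 RPKM in 5xFAD Trem2+/+.

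Lilrb4, an immunoglobulin-like receptor with inhibitory motifs, was at 3.63, 4.85, 4.36, 10.7 and 26.9 RPKM in NonTg and 75.9 to 224 (median 114) in 5xFAD Trem2+/+ (3.81, SE 0.39). Cd200r4, of the CD200 receptor family, rose by 3.94 (SE 0.33) and Cd300lf, which binds lipids of dying cells, by 2.49 (SE 0.26). Siglece, a sialic acid receptor with inhibitory motifs, went the other way, from 29.9, 32.4, 26.8, 22.2 and 20.9 RPKM in NonTg to 3.11 to 11.9 (median 5.75) in 5xFAD Trem2+/+, and it fell by 1.94 (SE 0.31, adjusted p = 5.61e-05 by limma). Thus the 5 named members of this list did not move as 1 block: the groups of all 5 genes were apart, 4 upward and 1 downward. The call of Siglece was also made with the endothelial term (-1.74, adjusted p = 0.0119). Lilrb4 and Cd200r4 have near-identical neighbours, and the authors' counting could have split or dropped reads they share.

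**Figure D3:**
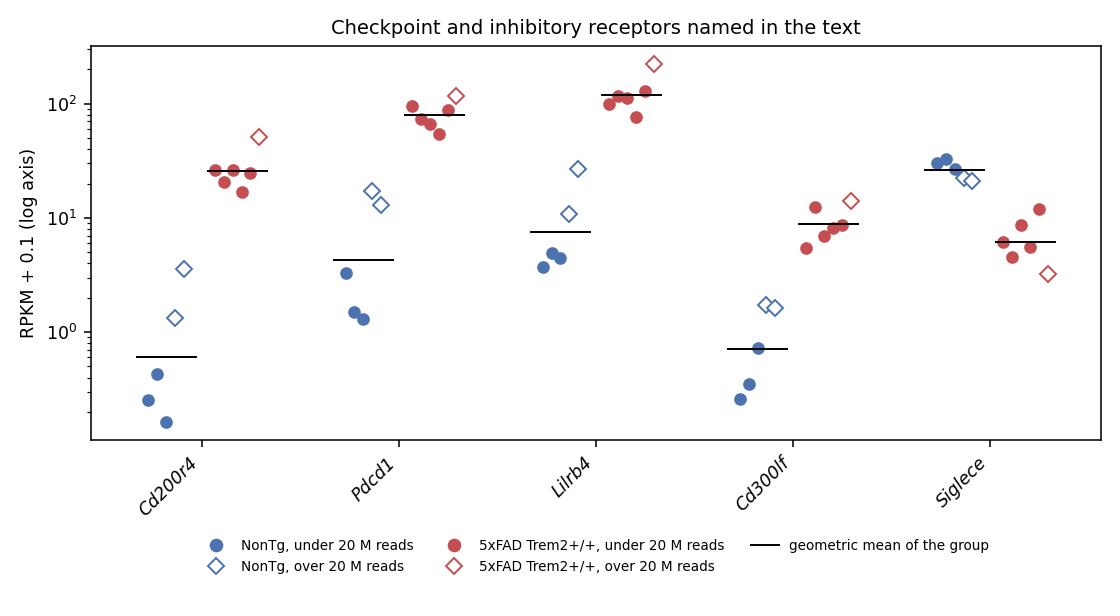
RPKM + 0.1 on a log axis of Cd200r4, Pdcd1, Lilrb4, Cd300lf and Siglece in each library, with the geometric mean of each group as a line; open diamonds are the deep libraries. Pdcd1, Cd200r4, Lilrb4 and Cd300lf lie higher in all 6 5xFAD Trem2+/+ libraries than in any NonTg library, and Siglece lies lower in all 6.

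Among sensing and adhesion receptors, 12 of 27 integrin and adhesion genes were called higher and 3 lower (median 0.60), led after Itgax by the SLAM-family genes Ly9 (2.44, SE 0.24) and Cd48 (1.90, SE 0.23). Of 20 Toll-like receptors and adaptors 7 were called higher and 2 lower (1 lower without NonTg library 4, 24 or 28 or 5xFAD Trem2+/+ library 1, 7, 13 or 25). The receptor Tlr2 rose by 2.20 (SE 0.26), its co-receptor Cd14 by 1.84 (SE 0.26) and Ly86, which encodes the RP105 partner MD-1, by 2.03 (SE 0.26), while the flagellin receptor Tlr5 fell by 1.24 (SE 0.26). Of 9 Fc receptors 4 were called higher and 1 lower (0 lower without NonTg library 4). Fcer1g, the shared signalling chain, was at 468, 517, 469, 1381 and 1212 RPKM in NonTg and 1490.0 to 5785 (median 2741) in 5xFAD Trem2+/+, where the lowest library stood just above the highest NonTg value. Of 22 phagocytic and scavenger receptors 6 were called higher and 2 lower, with a median of 0.13 (-0.12 after quantile normalization); without 5xFAD Trem2+/+ library 19 there were 5 lower and without NonTg library 28 there were 4. The TAM receptor Axl, which recognises phosphatidylserine through a bridging protein, was at 13.6, 2.47, 10.8, 18 and 26.2 RPKM in NonTg and 69.5 to 242 (median 146) in 5xFAD Trem2+/+ (3.51, SE 0.38). Lrp8, a receptor for apolipoprotein E and reelin, fell by 1.57 (SE 0.34).

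Of 33 cytokines and growth factors 14 were called higher and 4 lower (2 lower without NonTg library 4, and likewise without library 24). Dkk2, a secreted Wnt antagonist, was at 0.0149, 0.0314, 0.0536, 0.492 and 0.00769 RPKM in NonTg and 8.51 to 31.7 (median 17.8) in 5xFAD Trem2+/+, a rise of 4.10 (SE 0.29). Tnfsf8, the CD30 ligand, rose by 2.98 (SE 0.28). Among receptors for such factors 7 of 31 were called higher and 2 lower, the count higher was 4 without NonTg library 24, and the count lower was 0 without library 4. Il3ra (2.60, SE 0.41) and Csf2ra (2.06, SE 0.31), the alpha chains of the IL-3 and GM-CSF receptors, had the largest rises of that list, and Csf1r, the receptor that microglia need to survive, did not pass the test (0.47, SE 0.35) but was called higher among shallow libraries (1.17, adjusted p = 0.0027 by limma). Il1b, the gene of interleukin-1 beta, was at 13.1, 30.2, 26.1, 21.1 and 33.8 RPKM in NonTg and 52 to 148 (median 110.2) in 5xFAD Trem2+/+ (2.02, SE 0.40). It was also 1 of 10 genes called higher among 23 of the inflammasome and cell death list, none of which was called lower. The survival genes Bcl2 (2.02, SE 0.30) and Bcl2a1d (2.96, SE 0.31) were in the same list, and reads of Bcl2a1d are uncertain because of its near-identical copies.

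Of 18 chemokines 7 were called higher and 1 lower (2 lower without NonTg library 28). Ccl6, a macrophage attractant, was at 28, 25.4, 39.4, 121 and 122 RPKM in NonTg and 262 to 1119 (median 507) in 5xFAD Trem2+/+ (3.23, SE 0.39), and Ccl4 rose by 1.54 (SE 0.31). Cxcr4, the receptor of CXCL12, rose by 2.02 (SE 0.38) from 0.336, 0.577, 0.96, 0.774 and 1.55 RPKM in NonTg to 2.1 to 9.23 (median 8.15) in 5xFAD Trem2+/+. Its ligand gene Cxcl12, which vessel cells express, fell by 1.90 (SE 0.46), with 100.3, 24.9, 56.8, 32.7 and 29.9 RPKM in NonTg and 3.6 to 16.8 in 5xFAD Trem2+/+. Receptor and ligand thus moved in opposite directions, and with the endothelial term neither was called (adjusted p = 0.122 and 0.847 by limma). Of the 18 chemokine and chemoattractant receptors 5 were called higher and none lower, but without NonTg library 4, and likewise without library 24, 3 were.

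Many lysosomal genes were called higher. Of 18 cathepsins and related genes 13 were called higher and 1 lower (median 1.28; 0 lower without any 1 of NonTg libraries 4, 24 and 30 and 5xFAD Trem2+/+ libraries 1 and 25), of 40 hydrolases and membrane proteins 22 and 1 (median 0.66), and of 17 genes of the proton pump that acidifies the lysosome 14 and none (median 0.76). After quantile normalization these counts were 10 and 2, 18 and 1, and 9 and none, and with the endothelial term 8 and none, 11 and 1, and 4 and none. The medians with the endothelial term were 0.999, 0.538 and 0.537. Ctse, the gene of cathepsin E, was at 0.17, 0.18, 0.164, 2.8 and 1.52 RPKM in NonTg and 11.9 to 32 (median 15.8) in 5xFAD Trem2+/+ (3.50, SE 0.36), whereas the abundant cathepsin gene Ctsb was at 464, 396, 417, 1035 and 1149 RPKM in NonTg and 1674 to 4858 in 5xFAD Trem2+/+ (2.26, SE 0.30). Both groups of values were apart, the first starting near 0.

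The pump gene Atp6v0d2, a subunit isoform known from osteoclasts and macrophages, was at 0, 0, 0, 0 and 0.178 RPKM in NonTg, so 4 of the 5 libraries had no read, and at 3.25 to 19.2 RPKM (median 6.48) in 5xFAD Trem2+/+. Its fitted rise of 2.90 (SE 0.41) depends on the pseudocount. The next largest rise of the pump was Atp6v1f at 1.40 (SE 0.27), so the other subunits moved less. Of the hydrolases, Gusb, beta-glucuronidase, rose by 1.87 (SE 0.23) and Gla, alpha-galactosidase, by 1.75 (SE 0.23). The tetraspanin Cd63 of late endosomes was at 169, 149.7, 165, 674 and 662 RPKM in NonTg and 1335 to 4422 (median 2363) in 5xFAD Trem2+/+ (3.01, SE 0.37). Of 20 autophagy genes 4 were called higher and 1 lower, against 13.5% and 10% of all genes. Their median was 0.03 (-0.23 after quantile normalization). Without NonTg library 10, and likewise without library 24, there were 2 higher. Without NonTg library 10, 28 or 30 or 5xFAD Trem2+/+ library 19 there were 2 lower.

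Among genes of lipid uptake, storage and efflux 12 of 30 were called higher and 4 lower. Fabp3, a fatty acid-binding protein known from heart, was at 0.335, 0.283, 0.563, 3.9 and 2.05 RPKM in NonTg and 19.8 to 55.5 (median 28.9) in 5xFAD Trem2+/+ (3.85, SE 0.32). Apoc4, an apolipoprotein gene, rose by 4.15 (SE 0.49); it neighbours Apoc2 and Apoe on the chromosome, so reads that overlap 2 of these genes are uncertain. Clu, the apolipoprotein J gene and an Alzheimer disease risk gene, fell by 1.66 (SE 0.39, adjusted p = 0.00307 by limma). Clu is strongly expressed by astrocytes, and its fall was not called with the endothelial term (-0.74, adjusted p = 0.448). Acaca, which makes the malonyl-CoA for fatty acid synthesis, rose by 2.41 (SE 0.24), 1 of 5 genes called higher among 23 of sterol and fatty acid synthesis, where 1 was called lower. The median of that list was 0.14, the count higher was 3 without NonTg library 10 or 5xFAD Trem2+/+ library 1, 13 or 25, and the count lower went between 0 and 2 as single libraries were left out (0 without NonTg library 4 or 24 or 5xFAD Trem2+/+ library 13, 2 without NonTg library 10 or 28 or 5xFAD Trem2+/+ library 1 or 19).

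Hif1a, the gene of the hypoxia factor, rose, as did most genes of the list it belongs to. Of 25 genes of glycolysis and hypoxia 16 were called higher and 2 lower (median 0.73; 1 lower without NonTg library 4 or 24 or 5xFAD Trem2+/+ library 19 or 25). Hif1a was at 19.8, 10.8, 16.4, 31.7 and 33.1 RPKM in NonTg and 86.1 to 129.9 (median 100.5) in 5xFAD Trem2+/+, a rise of 2.24 (SE 0.22, adjusted p = 5.94e-08 by limma). Egln3, a prolyl hydroxylase that is induced by and marks HIF proteins for destruction, was at 0.371, 0.174, 0.198, 2.62 and 1.89 RPKM in NonTg and 16.8 to 54 (median 28.6) in 5xFAD Trem2+/+ (4.08, SE 0.38). In both genes the 5xFAD Trem2+/+ values lay above every NonTg value, and both calls were made with the endothelial term (2.11 and 3.53). The lactate exporter Slc16a3 rose by 2.23 (SE 0.27) and triosephosphate isomerase, Tpi1, by 1.40 (SE 0.28), but the glucose transporter Slc2a1, abundant in brain endothelium, did not pass (-0.57, SE 0.26); it was called lower among shallow libraries (-0.83, adjusted p = 0.0228 by limma) and after quantile normalization (-1.28). With the endothelial term 4 of the 25 genes were called higher, and the median was 0.63.

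Hif1a led the list of MiT, Bhlhe and lipid-sensing transcription factors, of which 6 of 28 were called higher and none lower (median 0.04, but -0.01 among shallow libraries and -0.06 after quantile normalization). Rxrg, a retinoid X receptor, was at 1.29, 0.672, 0.612, 1.77 and 2.11 RPKM in NonTg and 4.39 to 8.14 (median 6.66) in 5xFAD Trem2+/+ (1.75, SE 0.25). Bhlhe41, a repressor of E-box genes, rose by 1.36 (SE 0.26) and Mitf, which drives lysosomal and melanocyte genes, by 1.07 (SE 0.19). Most factors of the list thus lay close to no change, and the few called ones lay above it. Of 24 factors of the microglial lineage 4 were called higher and 3 lower, near the 13.5% and 10% of all genes. Without NonTg library 4 these counts were 2 and 0. Klf2, a factor of quiescent endothelium and macrophages, was at 635, 271, 479, 263 and 244 RPKM in NonTg and 69.1 to 130.3 (median 111) in 5xFAD Trem2+/+ (-1.71, SE 0.52). Its groups did not overlap, yet the call was lost without NonTg library 4 (adjusted p = 0.0643 by limma) or 24 (adjusted p = 0.05), and the value with the endothelial term was -0.64.

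Ion channels and transporters gave 9 genes called higher and 2 lower of 26; the count lower was 0 without NonTg library 4 or 5xFAD Trem2+/+ library 25 and 1 without NonTg library 28 or 30 or 5xFAD Trem2+/+ library 7, 13 or 19. Tmem163, a zinc transporter, was at 0.349, 0.327, 0.209, 1.28 and 0.943 RPKM in NonTg and 8.58 to 23.9 (median 10.7) in 5xFAD Trem2+/+ (3.12, SE 0.31). The potassium channel genes Kcnj2, of the inward rectifier Kir2.1, and Kcna3, of Kv1.3, rose by 2.42 (SE 0.26) and 1.82 (SE 0.36), with Kcnj2 at 4.82, 2.32, 2.82, 8.21 and 7.23 RPKM in NonTg and 18.8 to 40.5 in 5xFAD Trem2+/+. Of 23 genes of the phagocyte oxidase and antioxidant defence 6 were called higher and none lower. Cybb, the catalytic subunit of the oxidase, was at 2.17, 4.38, 6.96, 3.61 and 10.4 RPKM in NonTg and 27.5 to 61.9 (median 43.5) in 5xFAD Trem2+/+ (2.88, SE 0.29), and its partner Cyba rose by 1.58 (SE 0.29). In iron handling 3 of 14 were called higher and 2 lower, against 13.5% and 10% of all genes. The count lower was 4 without NonTg library 28, and 1 without NonTg library 4 or 24 or 5xFAD Trem2+/+ library 13, 19 or 25. The storage genes Fth1 (1.31, SE 0.27) and Ftl1 (1.19, SE 0.24) and the phagosomal transporter Slc11a1 (1.73, SE 0.20) rose. The iron exporter Slc40a1 fell by 1.65 (SE 0.42), from 258, 70.6, 146, 111 and 119 RPKM in NonTg to 16.9 to 63.6 in 5xFAD Trem2+/+, and was at -0.41 with the endothelial term. After quantile normalization Fth1 moved by 0.03 and was not called.

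Cell shape, matrix and protease genes also changed. Of 35 cytoskeleton genes 10 were called higher and 1 lower, against 5 and 4 after quantile normalization; the count lower was 3 without NonTg library 28, 2 without library 10, and 0 without NonTg library 4, 24 or 30 or 5xFAD Trem2+/+ library 14, 19 or 25. The myosin genes Myo5a and Myo1e rose by 2.92 (SE 0.25) and 2.56 (SE 0.31), and the actin capping protein Capg by 2.45 (SE 0.35). Myo5a was at 0.849, 1.05, 0.731, 2.35 and 2.74 RPKM in NonTg and 14.1 to 27.1 (median 14.8) in 5xFAD Trem2+/+. Of 25 proteases and inhibitors 8 were called higher and 5 lower (3 lower without NonTg library 24, and likewise without 5xFAD Trem2+/+ library 25). The plasminogen activator gene Plau was at 3.81, 4.47, 1.78, 12.1 and 10.3 RPKM in NonTg and 32.7 to 65 (median 37) in 5xFAD Trem2+/+ (2.70, SE 0.36), its receptor Plaur rose by 2.13 (SE 0.28), and the inhibitor Serpine2 by 2.10 (SE 0.25). Activator, receptor and inhibitor of this system thus all rose, whereas Serpinf1, which encodes an anti-angiogenic serpin, fell by 1.74 (SE 0.38). Of 24 matrix and galectin genes 7 were called higher, among them Lgals3, galectin-3 (3.47, SE 0.52), and 1 lower (2 lower without NonTg library 28, and 0 without NonTg library 4 or 24 or 5xFAD Trem2+/+ library 1, 13 or 25). Of 28 cell cycle genes 11 were called higher and 1 lower, led by Cdk1 (1.58, SE 0.24); 7 were called higher without 5xFAD Trem2+/+ library 25, and the count lower was 0 without NonTg library 4 or 24 and 2 without library 28.

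Antigen presentation and interferon-induced genes rose in part. Of 20 genes of MHC class I and peptide loading 10 were called higher and none lower, among them B2m, the shared light chain (1.84, SE 0.28), and its transcriptional activator Nlrc5 (1.59, SE 0.26). Of 14 MHC class II genes 6 and 1 were called, and 3 higher without NonTg library 4, and likewise without library 24. Of 42 type I interferon genes 20 were called higher and none lower (median 0.62). Among shallow libraries alone 12 of the 42 were called higher and 2 lower (median 0.40). With the endothelial term 9 were called higher and none lower, and the median was 0.80. Ifi27l2a was at 1.91, 3.03, 3.88, 7.84 and 14.7 RPKM in NonTg and 57.6 to 233 (median 118) in 5xFAD Trem2+/+ (4.18, SE 0.39), and the DNA sensor family gene Ifi204 rose by 2.60 (SE 0.21). Oas1a, which makes the activator of RNase L, was at 4.59, 2.93, 6.41, 5.97 and 6.14 RPKM in NonTg and 16 to 38.5 (median 28.8) in 5xFAD Trem2+/+ (2.22, SE 0.25). Isg15, a ubiquitin-like interferon gene, did not pass the test (0.70, SE 0.43).

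Interferon-induced GTPases, which attack vacuoles of pathogens, had no member called higher. Of 14 tested 3 were called lower, with a median of -0.40, which was 0.20 with the endothelial term. Gbp7 was at 19.5, 15.4, 16.7, 12.8 and 15.8 RPKM in NonTg and 2.6 to 8.97 (median 6.59) in 5xFAD Trem2+/+, so the groups were apart (-1.30, SE 0.25, adjusted p = 0.000509 by limma). Gbp3 fell by 1.14 (SE 0.33) with groups that overlapped. Irgm2 fell by 0.62 (SE 0.22, adjusted p = 0.0444), a call that was lost without any 1 of 9 of the 11 libraries (adjusted p up to 0.143 without NonTg library 4). With the endothelial term none of the 3 was called, and Gbp3 was at -0.07. Reads that Gbp genes share with near-identical neighbours are uncertain.

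**Figure D4:**
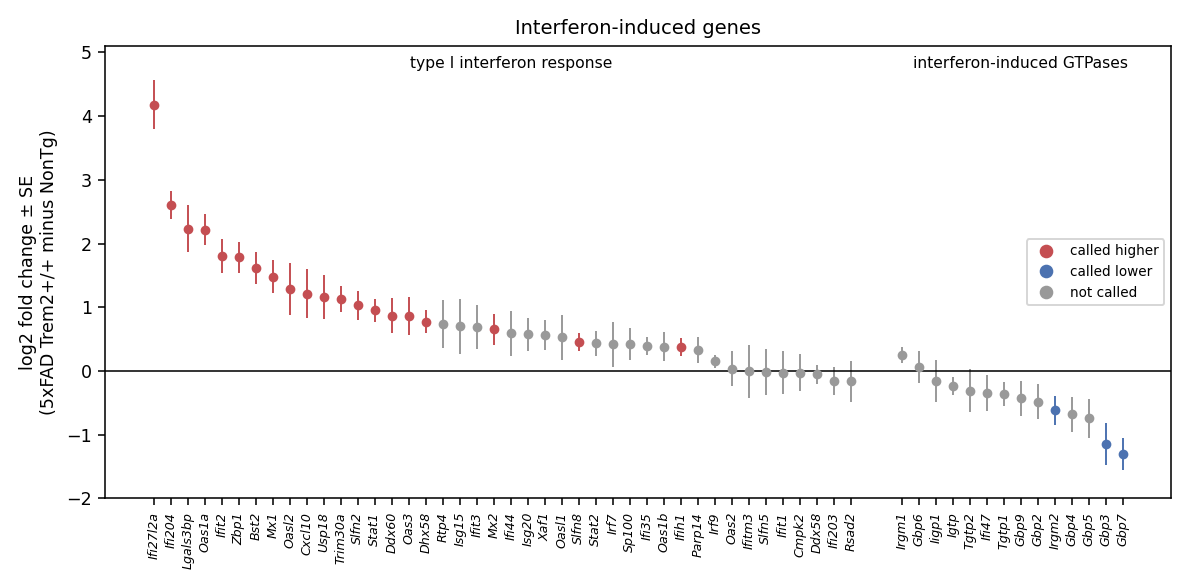
Log2 fold change (5xFAD Trem2+/+ minus NonTg) with its SE for the 42 tested type I interferon genes and the 14 tested interferon-induced GTPases, ordered within each list; red is called higher, blue called lower, grey not called. Calls higher fill the left of the first list (20 of 42) and calls lower the right of the second (3 of 14).

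Most called genes of both lists that could be searched carried the core of the interferon-stimulated response element near their start. List members that were not called were not examined apart. The shares below thus cannot tell called from uncalled members of a list. The search was for GAAANNGAA on either strand in the 250 bases before the RefSeq start of each gene (GRCm38.p6, a later build than that of the files). It was found in 8.18% of 27025 genes. Of the 20 type I interferon genes called higher 12 had a window and 8 of them held a match (66.7%), and all 3 GTPase genes called lower held one. Of 13 stage 2 genes of the disease-associated state with a window 2 did. The E-box letters CACGTG stood in none of these 12 windows and the AP-1 letters TGANTCA in 2, against 6.86% and 7.82% of all genes. A match is a description of the letters and not evidence of binding. The 4 windows printed next, each the last 100 bases before the start, are shown because the same letters stand before a pair of genes that rose (Oas1a and Ddx60, the latter by 0.87 with an SE of 0.27) and a pair that fell (Gbp3 and Irgm2); capitals mark the matches, overlapping ones merged. Ddx60, an RNA helicase gene, was chosen after its values were seen, and its call (adjusted p = 0.023 by limma) was lost without NonTg library 4 or 24 or 5xFAD Trem2+/+ library 14 or 25 (adjusted p up to 0.0701).
Oas1a, chr5:120907526-120907625, - strand: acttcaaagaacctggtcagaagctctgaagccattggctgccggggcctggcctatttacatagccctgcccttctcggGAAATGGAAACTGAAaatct
Ddx60, chr8:61927987-61928086, + strand: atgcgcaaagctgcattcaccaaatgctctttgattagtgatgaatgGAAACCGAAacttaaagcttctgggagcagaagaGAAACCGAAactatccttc
Gbp3, chr3:142559944-142560043, + strand: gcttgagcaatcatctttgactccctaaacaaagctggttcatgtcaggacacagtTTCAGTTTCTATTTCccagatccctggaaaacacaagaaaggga
Irgm2, chr11:58214877-58214976, + strand: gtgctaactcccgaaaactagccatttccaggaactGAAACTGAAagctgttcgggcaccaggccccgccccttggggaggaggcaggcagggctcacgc

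Homeostatic genes of microglia showed no common direction. Of 34 tested 2 were called higher and 5 lower (median 0.18, but -0.43 after quantile normalization and -0.05 with the endothelial term); among shallow libraries alone 13 were called higher and 5 lower, after quantile normalization none higher and 10 lower, and among deep libraries none and 2. Without NonTg library 28 there were 7 called higher, without 5xFAD Trem2+/+ library 25 there were 4, and without NonTg library 4, 10 or 24 or 5xFAD Trem2+/+ library 1, 13 or 19 there was 1. P2ry12, a purine receptor of resting microglia, was at 208, 250, 145, 496 and 518 RPKM in NonTg and 200 to 679 (median 419) in 5xFAD Trem2+/+ (0.39, SE 0.34, adjusted p = 0.445 by limma). Its difference was 1.12 among shallow libraries (adjusted p = 0.00863) and -1.34 among deep ones (adjusted p = 0.0952). The sign for P2ry12 and the counts of the list thus turned with depth class and scaling. Crybb1, a crystallin gene that marks microglia, was at 55.3, 127, 78.5, 104 and 84.7 RPKM in NonTg and 16.9 to 49.9 (median 38.4) in 5xFAD Trem2+/+, without overlap (-1.32, SE 0.34, adjusted p = 0.00556). Its value was -1.05 among shallow (adjusted p = 0.0167 by limma) and -2.41 among deep libraries (adjusted p = 0.0226), and -1.64 after quantile normalization; with the endothelial term its value was -1.50 (adjusted p = 0.0583 by limma). Gpr56, an adhesion receptor that vessel cells also express, fell by 1.32 (SE 0.35) and was at -0.46 with the endothelial term. The largest fall of the homeostatic list was Ecscr (-2.12, SE 0.35), a gene that endothelium expresses. Ecscr was also called lower among shallow libraries (-2.04), after quantile normalization (-2.35) and with the endothelial term (-1.73, adjusted p = 0.0283 by limma).

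The 12 largest falls were mostly genes known from vessels or astrocytes. Ecscr (-2.12, SE 0.35), Slc22a8 (-1.96, SE 0.45), Mfsd2a (-1.86, SE 0.36), Car4 (-2.04), Tmem204 (-1.91) and Cxcl12 are expressed by endothelium, Gpr37l1 (-2.34, SE 0.54) and Sparcl1 (-1.86) by astrocytes and vessels, and Cyr61 (-2.61, SE 0.62) is a matricellular protein. These falls went with the endothelial markers Pecam1 (-1.60, SE 0.35) and Cldn5 (-1.35, SE 0.36), and the part of vessel RNA in them was not tested. With the endothelial term 3 of the 12 were called, Bank1, Siglece and Ecscr, whereas of the 12 largest rises all but Hist1h1d were. Bank1, a scaffold of B cell receptor signalling, was at 9.68, 30.2, 15.5, 10.7 and 10.6 RPKM in NonTg and 0.312 to 3.08 (median 2.06) in 5xFAD Trem2+/+ (-2.48, SE 0.38), and it was at -2.46 with that term. None of the 3 tested B cell markers was called in the main fit, but 2 were called higher among shallow libraries. Their median was 1.175 among shallow libraries and -1.11 among deep ones. Summed RPKM of all 5 in the list was 129.2 to 470.0 in NonTg and 215.3 to 544.0 in 5xFAD Trem2+/+. Grap, an adaptor of receptor tyrosine kinases, completed the 12 (-1.96, SE 0.39).

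Of 23 genes of the TGF-beta pathway, known to keep microglia in their resting state, 2 were called higher and 7 lower (median -0.33); without NonTg library 4 there were 2 lower and without library 24 there were 4, and the count higher was 0 without NonTg library 24 or 30 or 5xFAD Trem2+/+ library 19 and 1 without NonTg library 10 or 5xFAD Trem2+/+ library 1, 7 or 13. Eng, a co-receptor of endothelium, fell by 1.53 (SE 0.32) and was at -0.53 with the endothelial term. Of 27 immediate early and heat shock genes, which respond to handling of the tissue, 1 was called higher and 4 lower (median -0.61), 13 lower after quantile normalization, 9 lower without 5xFAD Trem2+/+ library 19, none lower without NonTg library 4, and 2 lower without NonTg library 10 or 24 or 5xFAD Trem2+/+ library 1, 14 or 25. None was called higher without NonTg library 10 or 24. The heat shock gene Hspa1b had a value in library 19 unlike the rest of its group. It was at 88.1, 99.6, 61.8, 40.6 and 56.8 RPKM in NonTg and, in 5xFAD Trem2+/+, at 14.9, 20.1, 21.9, 8.58 and 9.7 in the other 5 libraries but 86.7 in library 19. Its fall of 1.73 (SE 0.57, adjusted p = 0.0282 by limma) was not called without NonTg library 4, 10 or 24 or 5xFAD Trem2+/+ library 1, 14 or 25 (adjusted p up to 0.0714). Hspa1b has a near-identical copy, Hspa1a, so its reads are uncertain. Gfap, an astrocyte gene, rose by 1.92 (SE 0.52) against the direction of the astrocyte markers Gja1 (-1.98, SE 0.56) and Gpr37l1.

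All 63 tested cytosolic ribosomal protein genes were called higher, with a median of 1.66, and all 63 were called with the depth class as a covariate, among shallow libraries and after quantile normalization. Among deep libraries 47 were called. Over all 11 libraries every 5xFAD Trem2+/+ value lay above every NonTg value in 33 of the 63 genes, against 5.83% of all genes. Rps12 had the largest rise, from 22.2, 34.4, 24.5, 112 and 68.1 RPKM in NonTg to 121 to 563 (median 271) in 5xFAD Trem2+/+ (2.56, SE 0.43). In 62 of the 63 both deep NonTg libraries lay above all shallow ones, against 17.5% of all genes. In 62 library 25 was the highest of the 6, against 25.9% of all genes. With the endothelial term 6 were called, and the median was 1.04. The level of these genes thus differed between depth classes within NonTg as well as between groups. In 5xFAD Trem2+/+ the only deep library was 25, so depth class cannot be told apart there from that library itself. Many have processed pseudogenes, so their reads are uncertain. Of 51 genes of the respiratory chain 18 were called higher and none lower; after quantile normalization 8 and 7 were, and the count higher was 8 without library 25, 10 without NonTg library 10 or 5xFAD Trem2+/+ library 1, and 11 without NonTg library 4. After Cox6a2, the largest rise there was Ndufa1 (2.18, SE 0.40). Of 23 genes of the unfolded protein response 7 were called higher and none lower, led by Sdf2l1, an endoplasmic reticulum chaperone cofactor (2.27, SE 0.32), and 3 were called higher after quantile normalization.

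**Figure D5:**
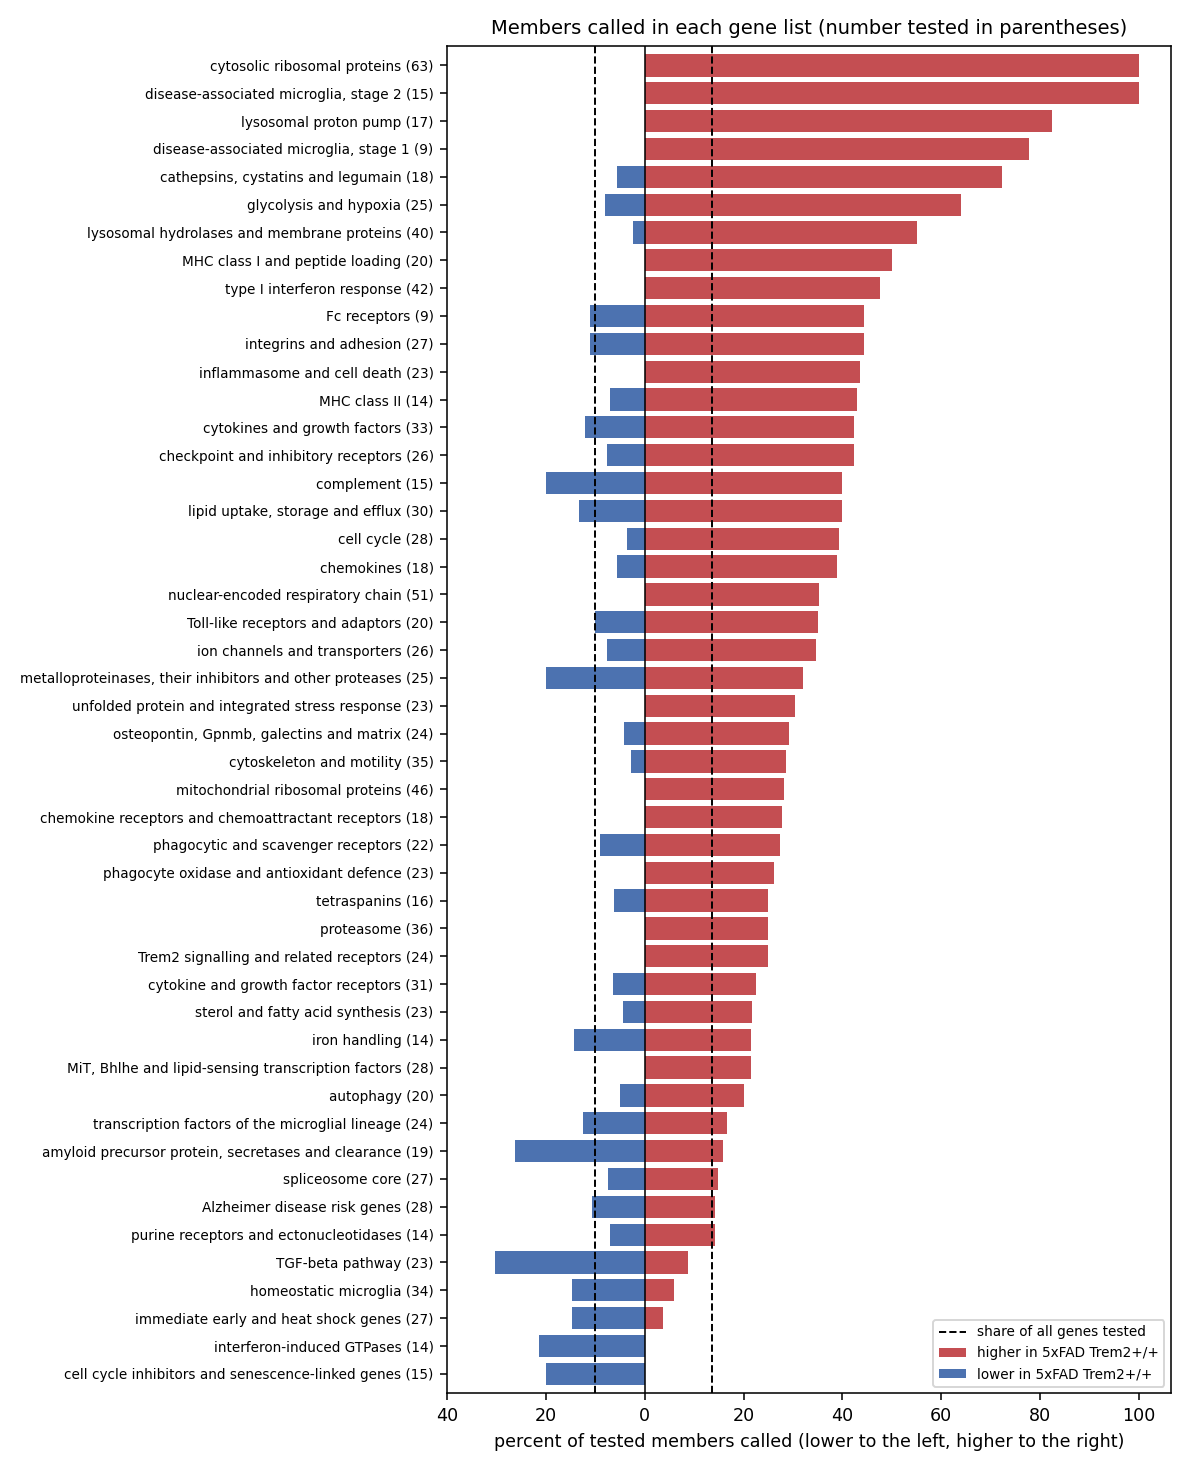
Share of the tested members of each of the 48 gene lists called higher (red, to the right) or lower (blue, to the left) in 5xFAD Trem2+/+, with the number tested in parentheses; dashed lines mark 13.5% and 10%, the shares of all genes tested. Cytosolic ribosomal proteins and stage 2 genes of the disease-associated state reach 63 of 63 and 15 of 15, and the interferon-induced GTPases and cell cycle inhibitors have no member called higher.

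For the remaining lists the counts were as follows, beside 13.5% called higher and 10% called lower over all genes. Called higher and lower were 4 and 1 of 16 tetraspanins, 6 and 3 of 15 complement genes, 2 and 1 of 14 purine receptors, 13 and none of 46 mitochondrial ribosomal proteins, 9 and none of 36 proteasome genes, and 4 and 2 of 27 spliceosome genes. For genes of amyloid precursor protein handling the counts were 3 and 5 of 19, for Alzheimer disease risk genes 4 and 3 of 28, and for cell cycle inhibitors none and 3 of 15. Many of these counts changed by over 1.5 times when 1 library was left out. Mitochondrial ribosomal proteins had 5 called higher without NonTg library 4 or 5xFAD Trem2+/+ library 25, 6 without NonTg library 24, 7 without NonTg library 10 and 8 without 5xFAD Trem2+/+ library 13. Complement had 3 higher without NonTg library 4 or 24, the proteasome 5 without NonTg library 10 or 5xFAD Trem2+/+ library 1 or 25, and the spliceosome 0 without 5xFAD Trem2+/+ library 25, 1 without NonTg library 10 and 2 without NonTg library 4 or 24 or 5xFAD Trem2+/+ library 1, 7 or 13. Spliceosome genes called lower were 0 without NonTg library 4 and 1 without any of the other libraries but NonTg 10 and 5xFAD Trem2+/+ 7 and 19. Alzheimer disease risk genes had 8 called higher without NonTg library 28, and purine receptors had 4 lower without it. Genes of amyloid precursor protein handling had 1 called lower without NonTg library 24, 2 without NonTg library 4 or 30 or 5xFAD Trem2+/+ library 19 or 25, and 3 without 5xFAD Trem2+/+ library 1. Cell cycle inhibitors had 1 called lower without NonTg library 4 or 24 or 5xFAD Trem2+/+ library 1 or 25, and tetraspanins had 0 lower without NonTg library 4 or 24.

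The endothelial term lowered the counts of most other lists too. Endothelial level separated the 2 groups, so these lower counts cannot be assigned to vessel RNA. Medians did not fall with every count. Without and with the term the median was 0.14 and 0.36 for sterol synthesis, 0.63 and 0.56 for MHC class I, and 0.33 and 0.09 for Trem2 signalling. With it 8 integrins, 5 Toll-like receptors, 2 Fc receptors, 5 phagocytic receptors, 8 cytokines, 3 of their receptors, 6 inflammasome and cell death genes, 3 chemokines and 1 chemoattractant receptor were called higher. The counts called higher were 10 for lipid uptake, 3 for sterol synthesis, 3 for the MiT and Bhlhe factors, 4 for Trem2 signalling, 5 for ion channels, 5 for the matrix list, 4 for proteases, 4 for the cytoskeleton, 6 for MHC class I, 1 for MHC class II, 1 for complement, 1 for iron handling, 1 for the oxidase list, 1 for the respiratory chain, 2 for the cell cycle and 3 for the unfolded protein response. No gene was called in either direction among the lineage factors, autophagy, TGF-beta, immediate early, proteasome, spliceosome, mitochondrial ribosomal, amyloid precursor protein and cell cycle inhibitor lists.

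Spread within the 5xFAD Trem2+/+ group was large for a few genes. Gsto1, a glutathione transferase, was at 11.8, 12.7, 12.2, 18.8 and 19.8 RPKM in NonTg and, in 5xFAD Trem2+/+, at 53.2, 48.3, 1595, 30, 48.5 and 250.4 RPKM in libraries 1, 7, 13, 14, 19 and 25. Library 13 thus stood far above the rest, although even the lowest of the 6 exceeded NonTg (2.79, SE 0.66). Ltf, a neutrophil granule gene, was at 422 RPKM in library 13 and 6.86 to 18.2 RPKM in the other 5. Retnlg, another neutrophil gene, was at 326 RPKM in library 25 and 9.26 to 29.4 in the other 5. Summed RPKM of all 10 neutrophil markers ran from 99.3 to 2764 in NonTg and from 420.1 to 6124 in 5xFAD Trem2+/+, and their part in these values was not tested. Apoe, the lipid carrier gene, was at 15220.0 and 5330.0 RPKM in libraries 19 and 25 but at 762, 1387, 804 and 859 in libraries 1, 7, 13 and 14, and its difference did not pass (1.75, SE 0.90, adjusted p = 0.17 by limma). The libraries that stood out thus differed from gene to gene. Without libraries 19 and 25, 1517 genes were called higher and 844 lower.

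The same NonTg libraries also served as controls for the T96K groups. Against NonTg, 1498 genes were called higher (10.3%) and 1032 lower (7.07%) in 5xFAD T96K/+, and 1499 (10.3%) and 737 (5.05%) in 5xFAD T96K/T96K. Pdcd1 was 3.86, 3.53 and 3.46 above NonTg in Trem2+/+, T96K/+ and T96K/T96K 5xFAD microglia on the log2 scale, Hif1a 2.24, 2.15 and 2.06, Igf1 5.16, 4.72 and 5.03, and Il1b 2.02, 1.11 and 1.47. Tested directly by limma, no gene was called between T96K/+ and Trem2+/+ (523 at an unadjusted p under 0.05) or between T96K/T96K and Trem2+/+ (544). A difference that misses the threshold does not show that these 5xFAD groups were alike.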

How the data were processed

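Microglial RNA was amplified with SMART-Seq v4 and made into Nextera XT libraries, per the labels' protocols, a chemistry that does not mark strand. The submitters' processing notes name STAR, HTSeq, edgeR and mm9, without versions or settings. The deposited values are RPKM with a gene length for each gene, in a table of 27 female libraries. RPKM times length gave whole reads for all values (within 0.01 reads), which gave each library's depth.

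Log2(RPKM + 1) was fitted with limma 3.58.1 (R 4.3.3; trend and robust options) with 1 mean per genotype over the 27 libraries, for the 14591 genes at 1 RPKM or more in at least 5 of them. P-values were adjusted by Benjamini-Hochberg over these genes. Named genes were Trem2, Tyrobp and the sort genes, the 12 largest rises and falls (called, without overlap, 5 RPKM or more in either group mean), up to 4 called and 2 abundant uncalled members of each list, and the 8 most variable genes at 20 RPKM or more; not every gene that this rule names is reported here. Genes, lists and markers were chosen with earlier results of these data known. Alternatives covered pseudocount, filter, normalization, depth class, limma options and single libraries. The fit was tested on simulated data. Male libraries were not used.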

Additional observations from a re-analysis of the deposited data

Results flagged for a closer look

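In 11 of the 242 groups of values checked (121 named genes in 2 groups), 1 library lay far from the rest of its group by Dixon's criterion on log2(RPKM + 1), which chance alone flags in about 1 group in 20.
Among NonTg libraries, number 30 was the highest for Apoc4 (0.986 RPKM, next 0.119), Atp6v0d2 (0.178, next 0) and Hpse (0.867, next 0.0376), number 28 for Dkk2 (0.492, next 0.0536) and number 10 for Ddx60 (5.78, next 2.92). Among 5xFAD Trem2+/+ libraries, number 25 was the highest for Igf1 (115.0 RPKM, next 45.6) and for the neutrophil gene Retnlg (326 RPKM, next 29.4) and the lowest for Klf2 (69.1 RPKM, next 104). Number 14, the shallowest of that group, was the lowest for Gla (10.2 RPKM, next 16.4) and Tlr2 (73.7 RPKM, next 146). Number 13 was the highest for the neutrophil gene Ltf (422 RPKM, next 18.2).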

How the results depend on the processing

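The 3438 genes called became 1276 among deep libraries only, where the single 5xFAD Trem2+/+ library is assumed to vary like the other groups, 504 with the endothelial marker level as a covariate and 1286 when a change of at least 2-fold was also asked; leaving out single libraries gave 2397 (without NonTg library 4) to 3650 (without NonTg library 28). All other alternatives stayed within 1.5 times that count. Of 110 called genes named with a value, 67 were called in the same direction under every alternative and none changed sign. With the endothelial term 41 of the 110 were not called, among deep libraries 22, and after quantile normalization 2 (Ccl4 and Fth1). Signs turned for these genes that were not called: after quantile normalization Csf1r (-0.41) and P2ry12 (-0.17); among deep libraries Csf1r (-1.25), Itgam (-0.99), P2ry12 (-1.34) and Trac (1.72); among shallow libraries Retnlg (-0.11); with the endothelial term Slc2a1 (0.22); and with voom on the recovered reads Trac (0.018). Gained calls were Itgam, Csf1r, P2ry12 (higher), Slc2a1 and Trac (lower) among shallow libraries, Itgam and Csf1r (higher) without NonTg 28 and 30, and Prkcd and Slc2a1 (lower) after quantile normalization. The cause was not tested. Voom, the endothelial term and the runs without NonTg 28 and 30 or 5xFAD Trem2+/+ 19 and 25 were chosen after seeing the data; the planned count tests (quasi-likelihood and negative binomial) were not run, because the deposited values are RPKM. No paired analysis was possible because the compared groups share no library number. In the shallowest library, of 6836049 reads, low genes rest on few reads, and RPKM below 1 is imprecise.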
